A study of Mus musculus with 14 samples.

Results

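The 38 genes described here encode the core machinery of autophagy and a few defining proteins of the lysosome, and were taken by symbol from a list. No measured value enters the rule, but the list was drawn up with earlier results of these data known. All 38 of them were among the 36047 genes of each table, and all 38 passed the filter on low counts in both. They fall into 9 groups by role, which set the order of the results. The genes were followed in embryoid bodies, clumps of differentiating mouse embryonic stem cells, kept in conditions that favour mesoderm. Control embryoid bodies came from the line iHA-Foxk1; its genotype label reads iHAFoxk1 on the early days, but Control on day 10. Titles of the day 3 and day 5 control libraries also carry the letters ND, which the KO titles lack and the labels do not explain, so whatever ND marks cannot be separated from genotype on those days. The others came from a Foxk1 KO line, collected at days 3, 5 and 10, and a further day 10 group of the same line was labelled with IWR1, a Wnt pathway inhibitor that acts by stabilising Axin. The sources used here give neither its dose nor its timing. Each of the 7 groups had 2 libraries. The sources used here do not say whether a line is 1 clone, nor whether the 2 libraries of a group were separate cultures, so p-values measure only the spread between these libraries, which may be technical. Since each genotype is 1 line, any other difference between the 2 lines cannot be told apart from the loss of Foxk1.

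Autophagy delivers cytoplasm to the lysosome. The ULK kinase complex starts it, a phosphatidylinositol 3-kinase complex marks the site, the lipid carriers and the Wipi proteins let the membrane grow, and a pair of ubiquitin-like conjugation systems attaches Atg8 proteins to that membrane, where receptors such as Sqstm1 bring in cargo. The closed autophagosome fuses with a lysosome, whose acid-active cathepsins degrade the content. The transcription factors Tfeb and Tfe3 raise many of these genes through E-boxes when nutrients are short, and Foxk1, a forkhead factor that works with Sin3 corepressors, is known to repress autophagy genes when nutrients are plentiful.

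Libraries of days 3 and 5 held 10574194 to 11621032 estimated counts, and those of day 10 held 34466708 to 52747273. Levels are CPM, counts scaled to a common library total after TMM scaling, and are listed as library 1 and library 2. Differences are log2 fold changes ± SE. A gene counts as higher or lower only where the adjusted p of edgeR's quasi-likelihood test, over all genes tested, was under 0.05. Foxk1 itself tests whether the labels hold. Day 3 control held 86.3 and 76.4 CPM and KO 16.2 and 16.5 CPM, a log2 difference of -2.32 ± 0.09 (edgeR adjusted p = 2.22e-07). Day 5 control held 134 and 133 CPM and KO 38.2 and 33.6 CPM (-1.90 ± 0.09, edgeR adjusted p = 4.91e-07). At day 10 the libraries labelled KO held 71.3 and 41.8 CPM, which overlapped the 65.0 and 80.1 CPM of control (-0.36 ± 0.39, edgeR adjusted p = 0.722). The KO label is therefore not borne out by Foxk1 at day 10, and day 10 directions rest on the labels. Foxk2, the paralog, was lower in KO at day 5 (-0.32 ± 0.06, edgeR adjusted p = 0.00285) and was not called at day 3 (-0.08 ± 0.06, edgeR adjusted p = 0.347) or day 10 (-0.01 ± 0.18, edgeR adjusted p = 0.988). The depth of the shallowest gene is small: Atg10 had 12 counts in 1 day 3 KO library.

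At day 3 the lysosomal proteases, the cargo receptor Sqstm1 and the transcription factor Tfe3 were higher in KO embryoid bodies, while most of the upstream machinery did not pass the test. Of the 38 genes, 8 were higher and 5 were lower. Over all 14430 genes tested, 32.9% passed in either direction, 16% higher and 16.9% lower. For the 38 genes these shares were 34.2%, 21.1% and 13.2%, so the number of calls was close to the background. The median log2 difference was 0.05 over the 38 genes and -0.01 over all genes tested. Under alternatives that kept both libraries of each group compared, 7 to 11 of the 38 genes were higher and 1 to 5 lower. Over all genes tested, DESeq2 called 2991 of 14430 and a fit of the compared groups alone 7334 of 13658, against 4741 at first. A fit without 1 library leaves 1 library in its group, and leaving out any of the day 3 libraries also lowered the calls over all genes tested. The 5 genes called lower included 4 that did not hold: without any 1 of the 4 day 3 libraries 8 calls were left, 7 higher and 1 lower, the latter being Ulk2.

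Ctsd, Ctsb and Ctsl encode cathepsins, the main proteases of the lysosome, and Lamp1 encodes an abundant glycoprotein of its membrane. Ctsd (chromosome 7, 142375911 to 142388038) was at 199 and 189 CPM in control and at 375 and 379 CPM in KO, a log2 difference of 0.96 ± 0.06 (edgeR adjusted p = 2.42e-06) and the largest rise among the 38 genes that day. Ctsl (chromosome 13, 64359337 to 64370890) was at 256 CPM in both control libraries and at 388 and 385 CPM in KO (0.59 ± 0.06, edgeR adjusted p = 0.000127). Ctsb (chromosome 14, 63122462 to 63145923) was at 84.2 and 82.2 CPM in control and at 127 and 123 CPM in KO (0.59 ± 0.06, edgeR adjusted p = 0.000101). In all 3 cathepsins both KO libraries lay above both control libraries, as in 16 of the 38 genes and 5298 of the 14430 tested. Lamp1 (chromosome 8, 13159161 to 13175338) rose less, from 433 and 436 CPM to 534 and 514 CPM (0.27 ± 0.05, edgeR adjusted p = 0.00193). Lamp2, its relative, which also serves chaperone-mediated autophagy, was at 88.0 and 83.1 CPM in control and 83.4 and 74.8 CPM in KO (-0.11 ± 0.07, edgeR adjusted p = 0.263).

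Tfeb and Tfe3 bind the E-box CACGTG, and promoter sequences are shown here because Lamp1, Ctsd and Ctsl, all called higher at day 3, carry it. RefSeq promoters (GRCm38.p6, the mm10 assembly, 250 bases before to 50 after the start) were matched for 31 of the 38 genes. The motif CACGTG, which reads the same on both strands, was found in 7 of the 31 (22.6%), against 8.09% of 27025 genes with a promoter in the table. The longer TCACGTG, which contains CACGTG and was searched on both strands, was found in 5 of the 31 (16.1%) against 4.29% of genes. The 7 were Atg14, Atg3, Atg5, Atg7, Lamp1, Ctsd and Ctsl, of which 3 were higher at day 3 and 3 (Atg3, Atg5 and Atg7) were called on neither day 3 nor day 5. Of the other genes higher at day 3, Wipi2, Sqstm1, Tfe3 and Gabarapl1 had no CACGTG in their promoters, and no promoter was matched for Ctsb. Windows are printed 5′ to 3′ on the gene's strand with each CACGTG in capitals. They cover 4 sites before the Lamp1 start on the plus strand (chr8:13159060-13159160), 1 of the 2 sites of Ctsd on the minus strand (chr7:142387908-142387937), the site of Ctsl on the minus strand (chr13:64370739-64370768) and both sites of Atg3 on the plus strand (chr16:45158695-45158784), a gene that was not called.
Lamp1: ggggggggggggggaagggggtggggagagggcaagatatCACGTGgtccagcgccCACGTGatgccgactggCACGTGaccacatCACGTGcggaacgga
Ctsd: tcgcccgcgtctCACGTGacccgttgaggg
Ctsl: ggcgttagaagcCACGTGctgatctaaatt
Atg3: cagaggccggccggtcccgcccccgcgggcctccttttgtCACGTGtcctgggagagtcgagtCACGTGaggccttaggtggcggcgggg
Positions count from the RefSeq start. The printed Ctsd and Ctsl windows lie inside the GENCODE gene spans given above, and 30 and 15 of their 30 bases are annotated there as UTR, against 0 bases of the Lamp1 and Atg3 windows. The Lamp1 sites begin at -61, -45, -28 and -15 from its start, the printed Ctsd site at -98, the Ctsl site at -236 and the Atg3 sites at -94 and -71. The forkhead core TAAACA, searched on both strands, was found in 4 of the 31 promoters (12.9%: Wipi2, Atg4a, Gabarapl1 and Ctsl), against 15.1% of genes. The longer GTAAACA, which contains that core, was found in 0 of the 31 against 4.05% of genes. A match describes letters in this window and is not a measured binding site.

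Sqstm1 (chromosome 11, 50199366 to 50210827) encodes p62, which ties ubiquitinated cargo to Atg8 proteins. It was at 174 and 175 CPM in control and at 319 and 302 CPM in KO at day 3, a log2 difference of 0.83 ± 0.05 (edgeR adjusted p = 3.45e-06). Its exons share 17.3% of their length with Mrnip on the opposite strand, and counts of the pair cannot be told apart if strand was not used. Nbr1, a receptor of the same kind, was at 144 and 133 CPM against 152 and 133 CPM (0.04 ± 0.08, edgeR adjusted p = 0.728). Tfe3 (chromosome X, 7762560 to 7775202) was at 94.4 and 104 CPM in control and at 153 and 149 CPM in KO (0.60 ± 0.06, edgeR adjusted p = 0.000137). Its partner Tfeb was barely expressed, at 4.23 and 3.43 CPM in control and 3.18 and 3.13 CPM in KO (-0.28 ± 0.33, edgeR adjusted p = 0.554).

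The Atg8 proteins, which coat the growing membrane, went separate ways at day 3. Gabarapl1 (chromosome 6, 129533160 to 129542346) was at 44.9 and 46 CPM in control and at 71.2 and 73.7 CPM in KO (0.67 ± 0.07, edgeR adjusted p = 0.00016). Gabarap, the most abundant of the family per kilobase of exon, was lower, at 108 and 104 CPM against 89.2 and 87.3 CPM (-0.26 ± 0.07, edgeR adjusted p = 0.0167). Map1lc3b, which encodes the widely used autophagosome marker LC3B, was at 150 and 147 CPM in control and at 160 CPM in both KO libraries (0.11 ± 0.05, edgeR adjusted p = 0.112). The KO libraries of Map1lc3b, Map1lc3a and Gabarapl2 were all above control, yet none of these genes passed.

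Upstream, Ulk2 (chromosome 11, 61775649 to 61855073), a kinase that can stand in for Ulk1, was lower in KO at 11.3 and 11.6 CPM against 19.7 and 17.5 CPM (-0.70 ± 0.12, edgeR adjusted p = 0.00245). Ulk1, the kinase that receives the nutrient signal, was at 93.9 and 93.0 CPM in control and at 98.0 and 103 CPM in KO (0.11 ± 0.07, edgeR adjusted p = 0.277). Becn1, the scaffold of the lipid kinase complex, was at 63.8 and 68.6 CPM against 60.6 and 64.4 CPM (-0.08 ± 0.07, edgeR adjusted p = 0.43), and 43.9% of its exon length lies opposite Cntd1. Neither Ulk1 nor Becn1 nor any other gene of the lipid kinase complex passed at day 3. Wipi2, which reads the lipid signal and recruits the conjugation machinery, rose by a small amount, from 157 and 164 CPM to 183 and 187 CPM (0.21 ± 0.05, edgeR adjusted p = 0.0147). Atg10, the enzyme that joins Atg12 to Atg5, was at 2.29 and 2.91 CPM in control and at 1.06 and 1.35 CPM in KO (-1.10 ± 0.37, edgeR adjusted p = 0.0461). The scramblase Atg9a was lower at 25.8 and 26.5 CPM against 31.8 and 31.3 CPM (-0.27 ± 0.09, edgeR adjusted p = 0.0488). The protease Atg4b was lower at 56.8 and 60.5 CPM against 67.8 and 73.2 CPM (-0.27 ± 0.08, edgeR adjusted p = 0.0343). Wipi2, Atg10, Atg9a, Atg4b and Gabarap each lost the call with DESeq2 and without each of the day 3 libraries in turn.

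**Figure D1:**
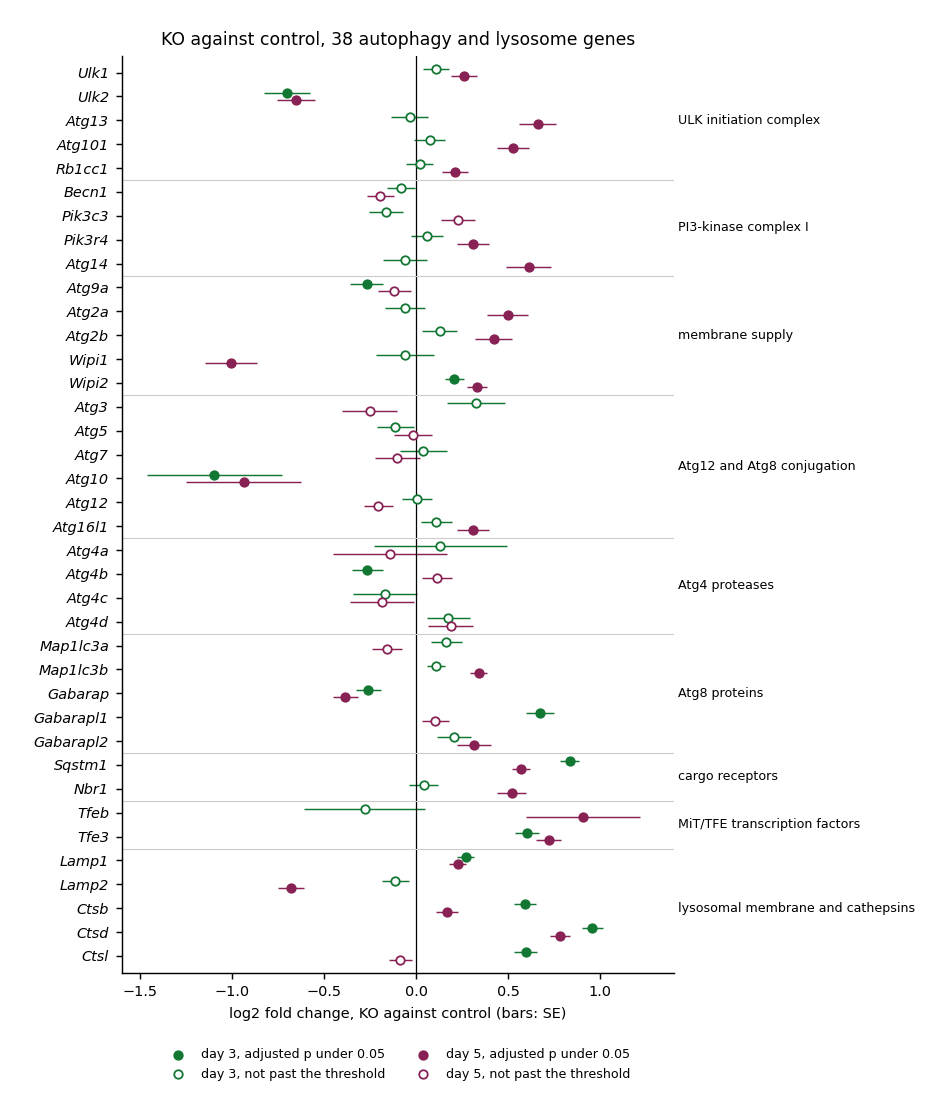
Log2 fold change of KO against control for each of the 38 genes at day 3 (green) and day 5 (purple), grouped by role. Points are fitted values from 2 libraries a group, bars are SE, and filled points passed an adjusted p of 0.05. At day 5 filled points to the right extend into the initiation and membrane groups, and Ctsd, Sqstm1 and Tfe3 lie right of zero on both days.

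The same comparison was made at day 5. More of the 38 genes were called higher in KO, among them genes of the machinery that starts and extends the autophagosome. A call on a single day does not show a change between days. The direct test of that change, given below, passed for Atg13, Atg101, Atg14 and Atg2a of this machinery. It did not pass for Ulk1, Rb1cc1, Pik3r4, Atg2b or Wipi2. Of the 38 genes, 19 were higher and 5 lower. The background over all genes tested was 43.5% called, 21.9% higher and 21.7% lower, against 63.2%, 50% and 13.2% of the 38 genes. The median log2 difference was 0.20 over the 38 genes and 0.01 over all genes tested. Under alternatives that kept both libraries of each group compared, 12 to 20 of the 38 genes were higher and 4 or 5 lower. Over all genes tested, DESeq2 called 4358 of 14430 and a fit of the compared groups alone 4354 of 13561, against 6281 at first. Leaving out a library moved the calls over all genes as well, to fewer without either control library and to more without either KO library. Without control library 1, 15 calls were left, 11 higher and 4 lower. The 9 genes lost there were Ulk1, Rb1cc1, Pik3r4, Atg2a, Atg2b, Atg10, Atg16l1, Tfeb and Ctsb. Counts without any of the other day 5 libraries are not set against the first fit. Each such fit leaves 1 library in its group, and the background moved with it.

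In the ULK complex, 4 of 5 genes were higher. Atg13 (chromosome 2, 91674618 to 91710576), the adaptor that holds the complex together, was at 42.3 and 46.1 CPM in control and at 63.3 and 76.4 CPM in KO (0.66 ± 0.10, edgeR adjusted p = 0.000739). Its partner Atg101 was at 26.0 and 27.0 CPM against 37.7 and 38.6 CPM (0.53 ± 0.09, edgeR adjusted p = 0.00118). Ulk1 was at 101 and 97.4 CPM against 111 and 127 CPM, a smaller rise (0.26 ± 0.07, edgeR adjusted p = 0.015), and the scaffold Rb1cc1 rose by 0.21 ± 0.07 (edgeR adjusted p = 0.0391). Ulk2 was again lower, at 58.4 and 64.1 CPM in control and 42.0 and 35.9 CPM in KO (-0.65 ± 0.11, edgeR adjusted p = 0.000994). The 2 ULK kinases thus had calls of opposite sign at day 5, although that of Ulk1 was lost without either control library or KO library 2.

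In the lipid kinase complex, 2 of 4 genes were higher. Atg14 (chromosome 14, 47540893 to 47570649), the subunit that commits the complex to autophagy, was at 20.1 and 19.2 CPM in control and at 27.1 and 32.9 CPM in KO (0.61 ± 0.12, edgeR adjusted p = 0.00362). The regulatory subunit Pik3r4 rose by 0.31 ± 0.09 (edgeR adjusted p = 0.019), a call lost without either control library. Becn1 stood at 78.5 and 77.2 CPM against 64.7 and 71.4 CPM (-0.19 ± 0.07, edgeR adjusted p = 0.06). The catalytic subunit Pik3c3 stood at 33.9 and 38 CPM against 43.8 and 40.4 CPM (0.23 ± 0.09, edgeR adjusted p = 0.0722). Neither passed.

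Among genes of membrane supply, 3 of 5 were higher and 1 lower. The lipid transfer proteins Atg2a (19.9 and 22.4 CPM in control, 30.3 and 29.3 CPM in KO, 0.50 ± 0.11, edgeR adjusted p = 0.00555) and Atg2b (0.42 ± 0.10, edgeR adjusted p = 0.00768) were higher. Wipi2 was at 115 and 109 CPM against 139 and 142 CPM (0.33 ± 0.05, edgeR adjusted p = 0.00109). Its relative Wipi1 (chromosome 11, 109573331 to 109611967) had the largest fall of the 38 genes, from 39.5 and 39.1 CPM to 22.5 and 16.7 CPM (-1.01 ± 0.14, edgeR adjusted p = 0.00046). The 2 Wipi genes moved in opposite directions, each with groups that did not overlap. Both KO libraries lay above both of control for 22 of the 38 genes and below for 12. Over all 14430 genes tested this held for 5106 and 5082. In the conjugation group, Atg16l1, which places the Atg12 and Atg5 conjugate on the membrane, rose by 0.31 ± 0.09 (edgeR adjusted p = 0.017). Atg10 fell again, from 6.24 and 5.37 CPM to 3.70 and 2.36 CPM (-0.94 ± 0.31, edgeR adjusted p = 0.0359). The rest of that group, Atg3, Atg5, Atg7 and Atg12, did not pass on either day, nor did Atg4a, Atg4c and Atg4d. None of the 4 Atg4 proteases, which prime and release Atg8 proteins, passed at day 5.

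Among Atg8 proteins at day 5, Map1lc3b was at 130 and 129 CPM in control and at 162 and 165 CPM in KO (0.34 ± 0.05, edgeR adjusted p = 0.000478), and Gabarapl2 rose by 0.32 ± 0.09 (edgeR adjusted p = 0.0204). Gabarap was lower, at 214 and 199 CPM against 167 and 149 CPM (-0.38 ± 0.07, edgeR adjusted p = 0.0014). Gabarapl1, raised at day 3, stood at 58.5 and 65.0 CPM against 65.3 and 67.4 CPM (0.10 ± 0.07, edgeR adjusted p = 0.282). Thus the Atg8 gene that rose at day 3 was not the one that rose most clearly at day 5.

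Both cargo receptors were higher at day 5. Sqstm1 was at 233 and 230 CPM in control and at 356 and 333 CPM in KO (0.57 ± 0.05, edgeR adjusted p = 3.34e-05). Nbr1 was at 132 and 121 CPM against 187 and 175 CPM (0.52 ± 0.08, edgeR adjusted p = 0.000737). Both transcription factors were higher too. Tfe3 was at 55.1 and 57.0 CPM against 89.8 and 94.8 CPM (0.72 ± 0.07, edgeR adjusted p = 4.68e-05). Tfeb was at 3.67 and 4.27 CPM against 9.57 and 5.32 CPM (0.90 ± 0.31, edgeR adjusted p = 0.04), from 37 and 43 counts against 106 and 61. The call for Tfeb was lost without either control library or KO library 1, whereas that for Tfe3 held under all 11 alternatives.

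The lysosomal genes split at day 5. Ctsd was at 407 and 385 CPM in control and at 710 and 648 CPM in KO (0.78 ± 0.06, edgeR adjusted p = 8.08e-06). Lamp1 was at 524 and 489 CPM against 593 and 591 CPM (0.23 ± 0.05, edgeR adjusted p = 0.00354). Ctsb was at 150 and 145 CPM against 158 and 173 CPM (0.17 ± 0.06, edgeR adjusted p = 0.0414), a call that 4 of 11 alternatives kept. Ctsl stood at 571 and 522 CPM against 485 and 544 CPM, overlapping (-0.09 ± 0.06, edgeR adjusted p = 0.292). Lamp2 (chromosome X, 38401357 to 38456454) was lower in KO, at 169 and 160 CPM against 275 and 253 CPM (-0.68 ± 0.07, edgeR adjusted p = 7.13e-05). So the 2 Lamp genes also had calls of opposite sign.

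**Figure D2:**
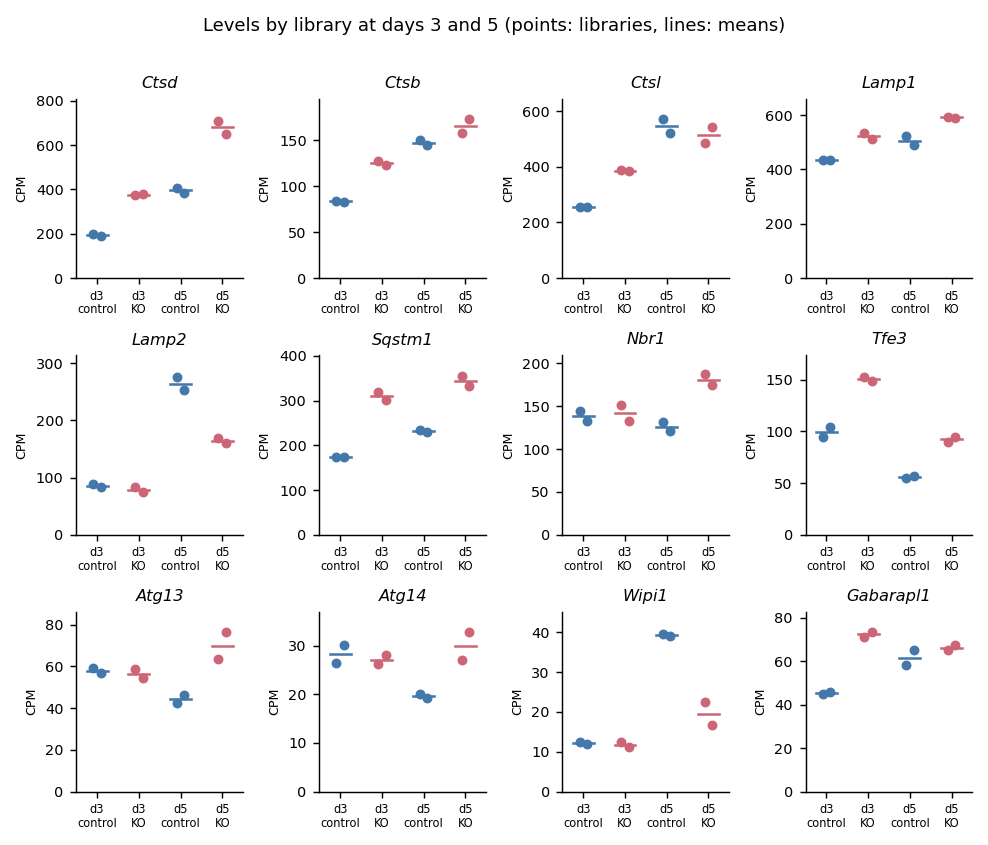
CPM of 12 of the genes in every day 3 and day 5 library, with control in blue and KO in red; points are libraries, lines are means of 2 libraries, and each panel starts at 0. Ctsd, Sqstm1 and Tfe3 were higher in KO on both days, whereas Lamp2 and Wipi1 climbed in control by day 5 and climbed less in KO.

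Read over both days, 6 genes were higher each time (Wipi2, Sqstm1, Tfe3, Lamp1, Ctsb and Ctsd), which is 6 of the 8 higher at day 3 and 6 of the 19 higher at day 5. Ulk2, Atg10 and Gabarap were lower each time. No gene was called in opposite directions on the 2 days, and 10 passed on neither: Becn1, Pik3c3, Atg3, Atg5, Atg7, Atg12, Atg4a, Atg4c, Atg4d and Map1lc3a. The change of the KO difference from day 3 to day 5 was tested directly. It passed for 13 of the 38 genes, 7 upward and 6 downward, a share of 34.2% beside 24.2% of all genes tested, 13.4% upward and 10.8% downward. Atg13 (0.70 ± 0.14, edgeR adjusted p = 0.00677) gained in KO relative to control. Gabarapl1 (-0.57 ± 0.10, edgeR adjusted p = 0.004), Lamp2 (-0.57 ± 0.10, edgeR adjusted p = 0.0034), Ctsb (-0.42 ± 0.08, edgeR adjusted p = 0.00611) and Ctsl (-0.68 ± 0.09, edgeR adjusted p = 0.000623) lost. Those 5 passed under all 14 alternatives. For Sqstm1 the KO difference was smaller at day 5 than at day 3 (-0.27 ± 0.07, edgeR adjusted p = 0.0257), but leaving out any library other than the 2 of day 5 KO ended that call, as did DESeq2 and library totals. The number of the 38 genes that passed this test depended on the library left out, and so did the number over all genes tested.

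Marker lists of other cell types also differed between the lines on these days. Sums and tests are given for each list, since a few abundant genes can carry a sum. At day 3 the summed level of 13 visceral endoderm and yolk sac markers was 356 to 366 CPM in control, where 11 of the 13 had a count, and 826 to 830 CPM in KO, where 12 had a count; 4 of 12 tested were higher and 2 lower. Rhox5 was at 0 in every library of days 3 and 5, and Afp in both day 3 control libraries. Fibroblast markers, 8 of 9 with a count and Lum at 0, summed at day 3 to 2373 to 2384 CPM in control and 450 to 458 CPM in KO. Nearly all of that sum is Fn1, whose mean fell from 2348 to 422 CPM (-2.47 ± 0.21, edgeR adjusted p = 0.00122). Of the 9 markers 1 was higher, Thy1, and 1 lower, Fn1, and the median log2 difference was 0. The 7 primitive streak markers, all with a count, summed to 2215 to 2306 CPM in control and 248 to 299 CPM in KO, with 7 of 7 lower. At day 5, 5 of these 7 were higher. The 9 pluripotency markers, all with a count in both groups, summed to 71.8 to 77.5 CPM in control and 319 to 601 CPM in KO at day 5, with 8 of 9 higher. The visceral endoderm sums then overlapped, at 755 to 861 CPM in control and 681 to 907 CPM in KO, although 3 of 12 genes tested were higher and 6 lower, with a median log2 difference of -1.08. At day 5 fibroblast sums were 4239 to 4531 CPM in control and 2379 to 3890 CPM in KO, and cardiomyocyte sums 193 to 203 and 57.0 to 76.3 CPM, with 9 of 9 markers counted for each. Of 9 fibroblast markers 0 were higher and 4 lower, and of 9 cardiomyocyte markers 1 was higher and 4 lower. Macrophages are rich in lysosomes, and their 13 markers summed to 7.48 to 16.1 CPM over the 8 libraries, with C1qa, C1qb and C1qc at 0 in all of them. The part of these lists in the differences above was not tested. In bulk libraries, more cells of a type and more RNA per cell cannot be told apart.

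From day 3 to day 5, these genes rose more often than they fell in both lines. In control embryoid bodies 19 rose and 10 fell (76.3% called, against 60.8% of all genes tested, with 30.6% higher and 30.2% lower). In KO 20 rose and 3 fell (60.5%, against 53.8%, with 28.3% higher and 25.5% lower). The genes that rose in both lines were Ulk2, Rb1cc1, Atg9a, Wipi1, Atg7, Atg10, Atg12, Atg4a, Gabarap, Sqstm1, Lamp1, Lamp2, Ctsb, Ctsd and Ctsl, and those that fell in both were Wipi2, Atg4d and Tfe3. Becn1, Atg3, Map1lc3a and Gabarapl1 passed as higher in control and not in KO, and Ulk1, Atg4b, Nbr1 and Tfeb in KO and not in control; of these the difference between lines passed its own test for Gabarapl1, Atg4b and Nbr1. Lamp2 had the smallest p in control, rising from 88.0 and 83.1 CPM to 275 and 253 CPM (1.63 ± 0.07, edgeR adjusted p = 2.59e-07), and rose by 1.06 ± 0.07 in KO (edgeR adjusted p = 3.97e-06). Ulk2 rose by 1.72 ± 0.11 in control and by 1.76 ± 0.12 in KO. Its rise over time was nearly the same in the 2 lines and began from a lower level in KO.

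Ctsd rose by 1.03 ± 0.06 in control and 0.85 ± 0.06 in KO, and Ctsl by 1.09 ± 0.06 and 0.41 ± 0.06. Gabarap rose by 0.97 ± 0.07 in control and 0.84 ± 0.07 in KO. The fall of Tfe3 over the same days was of like size in both lines, by 0.83 ± 0.07 in control and by 0.71 ± 0.06 in KO on the log2 scale. Atg13 was the 1 gene called in opposite directions, lower by day 5 in control (-0.39 ± 0.10, edgeR adjusted p = 0.00829) and higher in KO (0.31 ± 0.10, edgeR adjusted p = 0.0243). That rise in KO was lost without either day 3 KO library or day 5 KO library 2, and the fall in control without either library 1 of control. Another 6 genes fell in control and were not called in KO: Atg101, Pik3r4, Atg14, Atg2a, Atg2b and Map1lc3b. With library totals alone as the scale, the control split was 16 higher and 13 lower. Over all genes tested that scale gave 3866 higher and 5054 lower, against 4420 and 4360 at first.

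**Figure D3:**
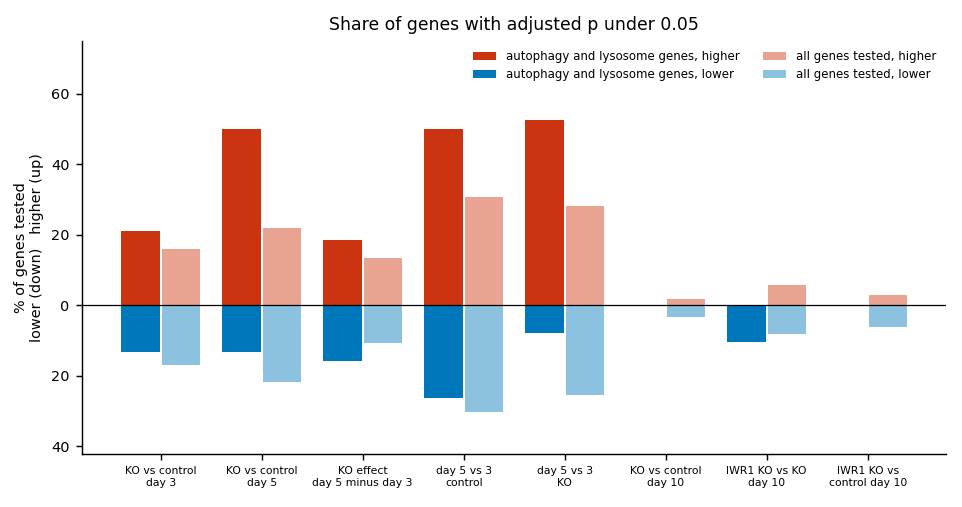
Share of genes with an adjusted p under 0.05 in each comparison, higher drawn upward and lower downward, for the 38 autophagy and lysosome genes (dark) and for all genes tested (light). The dark bar stands far above its background for genes higher in KO at day 5 (50% against 21.9%), and is near it at day 3 (21.1% against 16%). Other fits that kept both libraries of each group called 12 to 20 of the 38 genes higher at day 5, and 7 to 11 at day 3.

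At day 10 the spread between libraries was larger, and no autophagy or lysosome gene passed between the libraries labelled KO and control. The count was 0 of 38 with edgeR, against 5.27% of all 17022 genes tested, 1.92% higher and 3.35% lower. At an unadjusted p under 0.05 there were 6 (15.8%, against 19.9% of all genes tested), all higher in the libraries labelled KO: Atg3, Gabarap, Gabarapl1, Sqstm1, Lamp1 and Lamp2. DESeq2 called 3 (Sqstm1, Lamp1 and Lamp2), or 7.89% against 12.1% of all genes to which it gave an adjusted p. Both shares were below the background. The median log2 difference was 0.18 over the 38 genes and 0.02 over all genes. With library totals as the scale, the median over all genes tested shifted to -0.14 and that over the 38 genes to 0.02, so that small positive values at day 10 depend on the scale.

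Lamp2 was at 371 and 328 CPM in control and at 568 and 828 CPM in the libraries labelled KO (1.00 ± 0.25, edgeR adjusted p = 0.0796). Lamp1 was at 595 and 612 CPM against 964 and 1027 CPM (0.72 ± 0.22, edgeR adjusted p = 0.12). Sqstm1 was at 261 and 235 CPM against 369 and 450 CPM (0.72 ± 0.21, edgeR adjusted p = 0.107). For these 3 genes the groups did not overlap, and none passed. Both libraries labelled KO lay above both of control for 13 of the 38 genes and below for 4. Over all 17022 genes tested this held for 4371 and 4306, so groups without overlap were common. Gabarapl1 stood at 97 and 84.3 CPM against 122 and 191 CPM (0.79 ± 0.26, edgeR adjusted p = 0.148). Ctsd stood at 1946 and 1751 CPM against 2061 and 2875 CPM (0.42 ± 0.32, edgeR adjusted p = 0.578). Ctsl, at 1100 and 861 CPM against 990 and 1366 CPM (0.26 ± 0.29, edgeR adjusted p = 0.719), overlapped.

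None of the remaining index genes passed at day 10 either. Tfeb was at 12.7 and 10.4 CPM in control and at 12.8 and 13.3 CPM in the libraries labelled KO (0.18 ± 0.30, edgeR adjusted p = 0.832). Tfe3, higher in KO at days 3 and 5, stood at 47.4 and 51.9 CPM against 62.7 and 44.9 CPM (0.12 ± 0.24, edgeR adjusted p = 0.866). Ulk1 stood at 76.2 and 100 CPM against 83.8 and 48.8 CPM (-0.41 ± 0.37, edgeR adjusted p = 0.648). For Tfe3 and Ulk1 the groups overlapped, and for Tfeb they did not. Becn1 stood at 78.1 and 71.6 CPM against 61.6 and 69.0 CPM (-0.20 ± 0.20, edgeR adjusted p = 0.703), and Map1lc3b at 208 and 173 CPM against 207 and 335 CPM (0.51 ± 0.29, edgeR adjusted p = 0.418).

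Per kilobase of exon, Lamp1 was the highest of the 38 genes in control at day 3 (163 CPM per kb), before Ctsd (82.6), Gabarap (57.4) and Sqstm1 (51.9), and Atg4a was the lowest (0.579), next to Tfeb (0.676). In control at day 10 the order was led by Ctsd (786 CPM per kb), Ctsb (286), Lamp1 (226), Gabarap (164) and Ctsl (151). Ctsb held 150 and 145 CPM in day 5 control and 1762 and 1694 CPM in day 10 control. The 2 tables were deposited and scaled apart, so that difference was not tested. Macrophage markers summed to 919 to 1019 CPM in day 10 control, all 13 with a count, against 8.42 to 8.74 CPM at day 5.

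**Figure D4:**
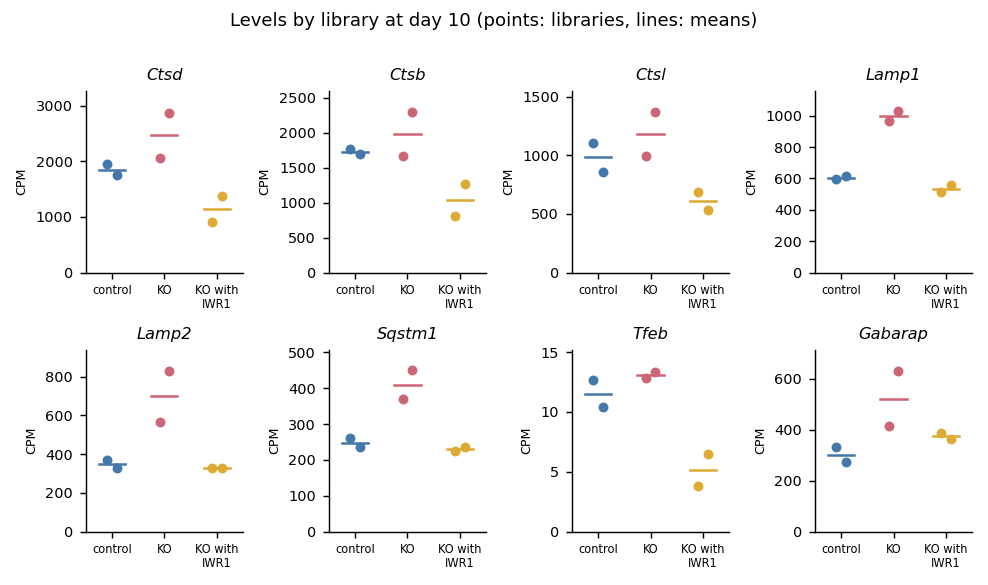
CPM of 8 of the genes in every day 10 library, with control in blue, libraries labelled KO in red and libraries labelled KO with IWR1 in yellow; points are libraries, lines are means of 2 libraries, and each panel starts at 0. The yellow points of Lamp1, Lamp2, Sqstm1 and Tfeb lie below the red ones, and those of Lamp1, Lamp2 and Sqstm1 lie close to control.

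Libraries labelled KO with IWR1 were compared with the untreated ones. Of the 38 genes 0 were higher and 4 were lower with IWR1: Sqstm1, Tfeb, Lamp1 and Lamp2. The Lamp genes are 2 of the 5 lysosomal members. These are 10.5% of the 38 genes, against 8.08% of all genes tested called lower, 5.77% called higher and 13.9% called in either direction, so the number of calls was close to the background. The median log2 difference was -0.44 over the 38 genes and -0.01 over all genes. Tfeb was at 3.79 and 6.48 CPM with IWR1 (-1.35 ± 0.31, edgeR adjusted p = 0.038), and Lamp2 at 326 and 327 CPM (-1.10 ± 0.26, edgeR adjusted p = 0.0386). Lamp1 was at 512 and 557 CPM (-0.90 ± 0.22, edgeR adjusted p = 0.042), and Sqstm1 at 224 and 235 CPM (-0.84 ± 0.21, edgeR adjusted p = 0.0443). All 4 calls sit just inside the threshold. None of the 4 was left in a fit of the compared groups only, without KO library 2 or without IWR1 library 1. Lamp2 alone was left without KO library 1. Without IWR1 library 2 the calls were Tfeb, Ulk2 and Wipi1.

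The cathepsins were lower in both libraries with IWR1 but did not pass. Both libraries with IWR1 lay below both untreated ones for 20 of the 38 genes and above for 6. Over all 17022 genes tested this held for 5140 and 4869. Ctsd was at 902 and 1371 CPM (-1.12 ± 0.33, edgeR adjusted p = 0.0667), Ctsl at 683 and 529 CPM (-0.96 ± 0.29, edgeR adjusted p = 0.0726) and Ctsb at 812 and 1262 CPM (-0.93 ± 0.32, edgeR adjusted p = 0.0972). Wipi1, at 28.8 and 36.0 CPM against 61 and 50.9 CPM, was near the threshold as well (-0.79 ± 0.21, edgeR adjusted p = 0.0515). At an unadjusted p under 0.05 there were 11 genes (28.9%, against 34% of all genes tested), 10 lower and 1, Atg4d, higher. This comparison shares the untreated libraries with that of KO against control, so the values of Sqstm1, Lamp1 and Lamp2 in the 2 comparisons are not independent.

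Against control, the libraries with IWR1 had 0 of 38 genes called with edgeR, beside 9.12% of all genes tested, 2.99% higher and 6.13% lower. There were 7 at an unadjusted p under 0.05 (18.4%, against 31.5% of all genes tested), 1 higher and 6 lower. DESeq2 called 2, Wipi1 and Tfeb (5.26%, against 20.3%). Tfeb stood at -1.17 ± 0.31 against control (edgeR adjusted p = 0.0648) and Wipi1 at -0.83 ± 0.21 (edgeR adjusted p = 0.0559). Lamp2 (-0.10 ± 0.25, edgeR adjusted p = 0.806), Lamp1 (-0.18 ± 0.22, edgeR adjusted p = 0.588) and Sqstm1 (-0.12 ± 0.21, edgeR adjusted p = 0.716) differed from control by less than their SE.

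Cell type markers also differed among the day 10 groups. Fibroblast markers, 9 of 9 with a count in each group, summed to 9492 to 10943 CPM in control, 23340 to 31031 CPM in libraries labelled KO and 1576 to 3978 CPM with IWR1. Macrophage markers, 13 of 13 with a count, summed to 919 to 1019, 815 to 1319 and 322 to 633 CPM in the same order. Visceral endoderm markers, 12 of 13 with a count and Rhox5 at 0, summed to 5293 to 6164, 1857 to 2805 and 648 to 923 CPM. Cardiomyocyte markers, 9 of 9 with a count, summed to 4462 to 5369, 165 to 372 and 446 to 592 CPM. Between libraries labelled KO and control, 2 of 9 fibroblast markers were higher, 0 of 13 macrophage markers passed, and 3 of 12 visceral endoderm and 8 of 9 cardiomyocyte markers were lower. With IWR1 against untreated libraries labelled KO, 7 of 9 fibroblast, 2 of 13 macrophage and 8 of 12 visceral endoderm markers were lower, 1 fibroblast and 1 visceral endoderm marker were higher, and 4 of 9 cardiomyocyte markers were higher. The summed levels of 39 other lysosomal hydrolases were 4285 to 4625 CPM in control, 5891 to 6344 CPM in libraries labelled KO and 2762 to 3377 CPM with IWR1. Fibroblast sums had the same order. Macrophage sums were lowest with IWR1 too, while their control and KO ranges overlapped. V-ATPase subunits summed to 1992 to 2316, 2415 to 3030 and 2104 to 2387 CPM, so their sums with IWR1 overlapped control. The part of these lists in the day 10 values was not tested.

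**Figure D5:**
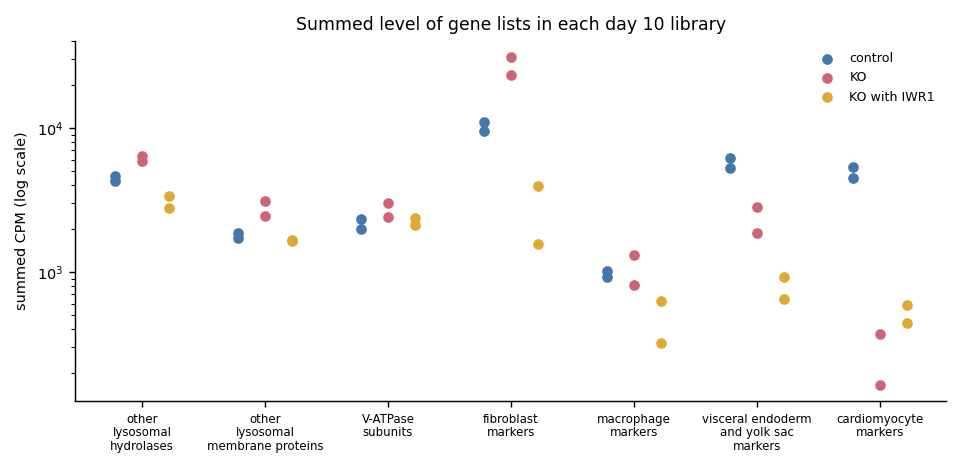
Summed CPM of each gene list in every day 10 library, on a log scale, with control in blue, libraries labelled KO in red and libraries labelled KO with IWR1 in yellow. The summed lysosomal hydrolases follow the order red, blue, yellow, as do the other lysosomal membrane proteins and, over a wider range, the fibroblast markers. The macrophage markers have yellow lowest, with red and blue overlapping. For the V-ATPase subunits yellow overlaps blue.

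The wider pathway was read from 7 lists of 170 other genes, beside 32.9% of all genes tested called at day 3 and 43.5% at day 5. Of 19 V-ATPase subunits tested, which acidify the lysosome, 8 were higher in KO at day 3 (42.1%, against 16%) and 4 lower (21.1%, against 16.9%). At day 5, 12 were higher (63.2%, against 21.9%) and 1 lower (5.26%, against 21.7%). Leaving out 1 day 3 library left 5 to 7 higher and 1 or 2 lower, and on library totals the day 3 split was 8 to 2. Without 1 day 5 library 9 to 11 were higher. Atp6v0c, a proton-channel subunit, stood at 182 ± 5.12 CPM (SD, n = 2) in control and 315 ± 7.2 CPM in KO at day 3 (0.79 ± 0.05, edgeR adjusted p = 3.73e-06). At day 5 it stood at 197 ± 0.356 against 337 ± 13.6 CPM (0.77 ± 0.05, edgeR adjusted p = 4.13e-06). Atp6v0b, of the same membrane sector, rose by 0.72 ± 0.06 (edgeR adjusted p = 2.57e-05) and by 0.41 ± 0.06 (edgeR adjusted p = 0.000578).

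Of 37 lysosomal hydrolases tested other than the 3 cathepsins, 14 were higher at day 3 (37.8%, against 16%) and 6 lower (16.2%, against 16.9%). At day 5, 9 were higher (24.3%, against 21.9%) and 13 lower (35.1%, against 21.7%), a split that turned to 11 and 9 on library totals. The KO difference itself changed between the days for 15 of the 37, 3 upward and 12 downward (32.4% downward, against 10.8%). DESeq2 called 8 of these changes, 1 upward and 7 downward, library totals gave 3 upward and 9 downward, and leaving out a library left 4 to 15 downward, the 4 without day 3 KO library 2. Leaving out 1 day 3 library left 7 or 8 higher. Asah1, acid ceramidase, went from 57.4 ± 1.5 to 107 ± 2.42 CPM (SD, n = 2) in KO at day 3 (0.90 ± 0.06, edgeR adjusted p = 5.86e-06), and the sialidase Neu1 from 41.5 ± 0.251 to 69.2 ± 1.61 CPM (0.74 ± 0.08, edgeR adjusted p = 0.000124). The KO difference of Asah1 was smaller at day 5 by a direct test (-0.67 ± 0.08, edgeR adjusted p = 0.00049). At day 5 the cathepsin Ctso fell from 33.0 ± 0.432 to 10.5 ± 3.27 CPM (-1.65 ± 0.21, edgeR adjusted p = 0.000293), and Hexa, a subunit of hexosaminidase, rose from 125 ± 8.41 to 172 ± 2.54 CPM (0.46 ± 0.06, edgeR adjusted p = 3.00e-04).

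At day 10 the same hydrolase list had 3 of 39 genes higher in libraries labelled KO than in control (7.69%, against 1.92% of all genes tested). Naglu, which degrades heparan sulfate, stood at 33.2 and 30.2 CPM in control and 83.3 and 93.7 CPM in libraries labelled KO (1.48 ± 0.21, edgeR adjusted p = 0.0172). Ctsk, a protease best known from osteoclasts, stood at 1.45 and 1.4 CPM against 4.92 and 7.63 CPM (2.14 ± 0.33, edgeR adjusted p = 0.0207). None of the 3 calls was left without KO library 2 or without either control library. With IWR1, 24 of 39 hydrolases were lower than in untreated libraries labelled KO (61.5%, against 8.08% of all genes tested) and 0 were higher. Fewer of all genes tested passed this comparison without IWR1 library 1 or without either KO library, and the hydrolase count fell as well. Naglu fell to 19.4 and 25.3 CPM (-1.99 ± 0.22, edgeR adjusted p = 0.00822), whereas Ctsk stood at 5.36 and 6.48 CPM (-0.08 ± 0.30, edgeR adjusted p = 0.865). Without IWR1 library 1 the count was 3, without KO library 1 it was 7, and without KO library 2 it was 8.

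The other lists held calls in both directions. Of 39 genes of mTORC1 and AMPK nutrient sensing, 5 were higher and 5 lower at day 3, and 8 higher and 11 lower at day 5 (9 and 7 on library totals). These are 25.6% called at day 3, below the background, and 48.7% at day 5, near it. Leaving out 1 library left 2 to 3 of these calls at day 3 and 9 to 20 at day 5. At day 3 Akt1s1, an inhibitory part of mTORC1, rose by 0.51 ± 0.09 (edgeR adjusted p = 0.00201), and the GTPase Rraga by 0.29 ± 0.07 (edgeR adjusted p = 0.00874), a call lost without either KO library or control library 1. The Rag GTPase Rragd, by which nutrients act on Tfeb, fell from 189 ± 15.7 to 116 ± 14 CPM (SD, n = 2) at day 5 (-0.71 ± 0.09, edgeR adjusted p = 0.000237), as did Prkab2, a subunit of AMPK (-0.89 ± 0.12, edgeR adjusted p = 0.000451). At day 10 its catalytic subunit Prkaa2 was lower in libraries labelled KO (-1.38 ± 0.28, edgeR adjusted p = 0.0424), a call lost without KO library 2 or either control library. Among 15 other cargo receptors 3 were higher and 3 lower at day 3, and 5 higher and 1 lower at day 5, or 40% called on each day, near the background at day 5 and somewhat above it at day 3. Retreg1, a receptor for the endoplasmic reticulum, was the strongest, from 8.06 ± 0.187 to 20.3 ± 1.02 CPM at day 3 (1.33 ± 0.18, edgeR adjusted p = 0.000595) and from 5.86 ± 0.993 to 16 ± 3.32 CPM at day 5 (1.45 ± 0.19, edgeR adjusted p = 0.000361). Ccpg1, for the same cargo, rose at day 3 (0.71 ± 0.16, edgeR adjusted p = 0.00733), a call lost without library 1 of either line, and the mitochondrial receptor Bnip3l rose at day 5 (0.38 ± 0.06, edgeR adjusted p = 0.000698).

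Of 24 other autophagosome and fusion genes, 2 were higher and 2 lower at day 3, and 8 higher and 3 lower at day 5 (16.7% and 45.8% called, below the background and near it). Vps11 (-0.51 ± 0.07, edgeR adjusted p = 0.000735) and Vps41 (-0.40 ± 0.06, edgeR adjusted p = 0.00102), subunits of tethering complexes for fusion, fell at day 3, and Plekhm1, an adaptor of the same step, rose at day 5 (0.62 ± 0.09, edgeR adjusted p = 0.000529). Tmem41b, a scramblase, fell at day 5 (-0.60 ± 0.07, edgeR adjusted p = 0.000205). Of 19 other lysosomal membrane proteins, 3 were higher and 3 lower at day 3, and 4 and 4 at day 5 (31.6% and 42.1% called, near the background on both days). The tetraspanin Cd63 rose from 104 ± 1.18 to 156 ± 0.127 CPM at day 3 (0.58 ± 0.06, edgeR adjusted p = 0.00011), and Laptm4b fell (-1.05 ± 0.14, edgeR adjusted p = 0.00151). The ion channel Tpcn1 fell from 217 ± 13.6 to 92.9 ± 20 CPM at day 5 (-1.22 ± 0.13, edgeR adjusted p = 0.00032), and Laptm4a fell as well (-0.46 ± 0.06, edgeR adjusted p = 0.000334).

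Among 11 other regulators of autophagy transcription, 4 were higher and 2 lower at day 3, and 3 higher and 4 lower at day 5 (54.5% and 63.6% called, from 6 and 7 genes). Foxo3, a forkhead factor known to raise autophagy genes, rose from 84.1 ± 2.68 to 133 ± 0.491 CPM (SD, n = 2) at day 3 (0.66 ± 0.06, edgeR adjusted p = 2.73e-05), and the deacetylase Hdac1, a Sin3 partner, rose too (0.56 ± 0.05, edgeR adjusted p = 5.77e-05). At day 5 Foxo3 rose from 76.4 ± 0.704 to 129 ± 4.34 CPM (0.75 ± 0.06, edgeR adjusted p = 1.04e-05). Foxo1, of the same family, rose at day 5 from 15.7 ± 1.15 to 28.0 ± 1.68 CPM (0.83 ± 0.11, edgeR adjusted p = 0.00029). Mitf, the relative of Tfeb and Tfe3, was lower in libraries labelled KO at day 10, at 5.63 and 5.74 CPM against 18.9 and 16.8 CPM (-1.65 ± 0.31, edgeR adjusted p = 0.0344), a call that leaving out any 1 of the 4 libraries ended.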

How the data were processed

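RNA sequencing libraries of mouse embryoid bodies were deposited as 2 tables of estimated counts, whole numbers as deposited, made with kallisto 0.46.2 and mm10 per the submitters' processing notes. The sources used here give neither the summing of transcripts to genes, nor the annotation, nor whether strand was used; reads from a gene and from one that overlaps it in antisense may be mixed. All 14 columns were matched to samples by name, with 2 libraries in each of 7 groups; day 10 was deposited and fitted apart. Symbols and positions came from GENCODE vM21, promoters from RefSeq.

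Each table was fitted with edgeR 4.0.16 in R 4.3.3 (filterByExpr, TMM, robust quasi-likelihood test, two-sided, Benjamini-Hochberg over all genes tested, threshold 0.05): 8 libraries and 14430 genes with 4 residual degrees of freedom for days 3 and 5, 6 libraries and 17022 genes with 3 for day 10. The SE is the absolute log2 fold change over the square root of the F statistic. The fit was tested on data simulated from the fitted model, where each gene had the same spread in every group. Those data cannot test the effect of a spread that differs between groups. Libraries of a group were not identical, and their counts differed by a chi-square of 1.87 to 159.8 per degree of freedom. Alternatives were DESeq2 1.42.0, other scalings, no filter, a replicate block, the compared groups alone, processed pseudogenes summed in, and leaving out each library. Pseudogenes were assigned by blastn 2.17.0 at 95% identity over at least 80% of their length.

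The 38 members and all lists were chosen with earlier results of these data known. Named are 10 index members (Ulk1, Becn1, Map1lc3b, Gabarapl1, Sqstm1, Tfeb, Tfe3, Lamp1, Ctsd and Ctsl) in every KO comparison, every member called, with levels by library for the largest 8 rises and falls that did not overlap, and of each pathway list up to 2 called genes with the smallest p. Levels by library are not given for every gene called between days, and some uncalled genes appear for contrast, chosen after their values were seen.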

Additional observations from a re-analysis of the deposited data

Results flagged for a closer look

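For 13 of the 38 genes the difference between KO and control changed from day 3 to day 5 by a direct test of that change (edgeR adjusted p under 0.05). The difference moved upward for Atg13 by 0.70, Atg14 by 0.67, Atg2a by 0.56, Nbr1 by 0.48, Atg101 by 0.45, Atg4b by 0.38 and Map1lc3b by 0.23 on the log2 scale. For Atg13, Atg14, Atg2a, Nbr1, Atg101 and Map1lc3b the day 3 difference did not pass and the day 5 difference was a rise in KO. Atg4b was lower in KO at day 3 and did not pass at day 5. The change was -0.95 for Wipi1, -0.68 for Ctsl, -0.57 for Gabarapl1, -0.57 for Lamp2, -0.42 for Ctsb and -0.27 for Sqstm1. Gabarapl1, Ctsl, Ctsb and Sqstm1 had been higher in KO at day 3, and Wipi1 and Lamp2 were lower in KO at day 5 only. Atg13, Gabarapl1, Lamp2, Ctsb and Ctsl passed under all 14 alternatives; the other 8 lost the call when at least 1 library was left out.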

How the results depend on the processing

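Of 1392 repeats of the named values under the alternatives, 1186 kept direction and side of the threshold, 198 lost the call, 5 gained it and 3 changed sign. Those 3 were of uncalled values: Tfe3 at day 10 (0.12) became -0.0337 on library totals and ranged from -0.185 to 0.341 when a library was left out, the low value without KO library 1, and Ctsl at day 5 (-0.09) became 0.0101 on library totals. Over all 304 values of the 38 genes in 8 comparisons, 64 changed sign under at least 1 alternative, 0 of them called. The number of the 38 genes called at day 3, 13 at first, was 8 with DESeq2. RLE scaling gave a split of 8 higher and 3 lower. Alternatives that kept both libraries of each group compared gave 7 to 11 higher and 1 to 5 lower at day 3. Leaving out a library lowered the day 3 count and the calls over all genes tested as well. At day 5 it was 15 to 24 without a library, the low value without control library 1, beside 24 at first. For the change from day 3 to day 5, 13 at first, DESeq2 gave 7, and leaving out a library 6 to 18. At day 10, KO against control gave 0 at first, 3 with DESeq2 and 1 with no filter on low counts. Over all genes the calls were 897 of 17022 at first, 2027 of 16692 with DESeq2 and 1737 of 24494 with no filter. IWR1-treated KO against KO gave 4 at first, 8 with DESeq2, 2 on library totals, 7 with no filter and 0 with the compared groups only. Over all genes this comparison gave 2358 of 17022 at first, 4308 with DESeq2 and 1950 on library totals. With no filter it gave 3697 of 24494, and with the compared groups only 1001 of 16434. The 8 calls with DESeq2 are 21.1% of the 38 genes. IWR1-treated KO against control gave 0 at first, 2 with DESeq2 and 2 with no filter. Over all genes the calls were 1553 of 17022 at first, 3456 with DESeq2 and 3093 of 24494 with no filter. The cause of these changes was not tested, except that leaving out a library leaves fewer samples.

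The labels do not say whether replicate numbers pair the samples. The correlation of deviations between same-numbered libraries was -0.02 to 0.05 at days 3 and 5 and -0.32 to 0.24 at day 10. It rests on 1 difference between 2 libraries in each group, so it cannot settle whether they are paired. A replicate block left 0 of the 4 calls of IWR1-treated KO against KO. Summing processed pseudogenes into Ctsl, Gabarapl2 and Map1lc3b, whose pseudogenes held at most 21 counts a library, changed no count of these calls. On library totals, calls over all genes were 4014 higher and 2445 lower at day 5 (3155 and 3126 at first), 1061 and 889 for IWR1-treated KO against KO (983 and 1375) and 150 and 525 for KO against control at day 10 (327 and 570). Alternatives for the pathway lists were chosen after seeing the data. With 2 libraries a group, small differences at day 10 were not detectable.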
